A study of Homo sapiens with 18 samples.

Results

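The introns of 10 genes of the apoptosis machinery were followed in SHEP.tet21n neuroblastoma cells: BCL2L1, MCL1, BCL2L11, BCL2L12, BAX, CASP2, CASP8, CASP9, FAS and CFLAR. An intron was taken as a member when at least 1 of its ends lay on an exon boundary that GENCODE annotates for one of these genes. The rule found 184 introns in 34 clusters, of 233650 introns in 51819 clusters in the whole series. Of the 184, 125 were annotated introns of the gene and 59 joined sites in a way that is not annotated. All 184 began with GT and ended with AG on the strand of their gene in hg38, a check of the coordinates, since the deposited identifiers carry no strand.

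SHEP.tet21n (also labelled SHEP21N) is a human neuroblastoma cell line in which doxycycline (Dox) switches off a MYCN transgene. The 18 libraries formed 6 groups of 3: MYCN-/SNRPD3+ (Dox and control siRNA, called wildtype), MYCN-/SNRPD3- with siRNA #1 or siRNA #2 against SNRPD3 (Dox), MYCN+/SNRPD3+ (DMSO and control siRNA) and MYCN+/SNRPD3- with siRNA #1 or siRNA #2 (DMSO). Dox was given at 2 µg/mL. All groups are the same line, so MYCN status and Dox cannot be told apart. The p-values measure the spread between the 3 replicates of a group. Where both SNRPD3 siRNAs were permuted together, they also hold the difference between these siRNAs. The values carry no gene expression, so the levels of SNRPD3, MYCN and cell type markers were not analysed here.

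Members of the BCL2 family decide whether the outer mitochondrial membrane is opened: BCL2L1 and MCL1 protect cells, BAX forms the pores, and BH3 proteins such as BCL2L11 (BIM) set the balance. Death receptors such as FAS act through CASP8, which CFLAR (c-FLIP) restrains, and CASP9 is the initiator caspase of the mitochondrial route. Many of these genes make a second isoform with a different or opposing activity by choosing another exon or splice site, and SNRPD3 encodes a core protein of the spliceosomal snRNPs that carry out the choice.

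The junctions below show what a read across each switch contains. In the joined exons, the upstream exon is in lower case and the downstream exon in capitals, all 5′ to 3′ in the direction of the gene, from hg38.
BAX exon 2 joined to exon 3: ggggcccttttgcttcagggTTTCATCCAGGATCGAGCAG
BAX exon 2 joined to exon 4: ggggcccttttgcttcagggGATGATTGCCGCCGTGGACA
CASP9 exon 2 joined to exon 3: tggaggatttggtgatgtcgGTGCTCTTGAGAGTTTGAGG
CASP9 exon 2 joined to exon 7: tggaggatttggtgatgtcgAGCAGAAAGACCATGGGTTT
MCL1 exon 1 joined to exon 2: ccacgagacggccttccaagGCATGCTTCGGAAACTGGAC
MCL1 exon 1 joined to exon 3: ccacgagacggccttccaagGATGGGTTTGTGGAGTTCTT
BCL2L12 exon 5 joined to exon 7: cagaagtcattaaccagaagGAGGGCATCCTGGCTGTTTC
The BAX exon that is lost, exon 3 (chr19:48955687-48955833, plus strand, 147 bases, in frame), is shown whole because it carries the BH3 core. The 6 codons in capitals, bases 101 to 118 of the exon, are its only match in frame to leucine, any 3 residues, glycine and aspartate.
BAX exon 3: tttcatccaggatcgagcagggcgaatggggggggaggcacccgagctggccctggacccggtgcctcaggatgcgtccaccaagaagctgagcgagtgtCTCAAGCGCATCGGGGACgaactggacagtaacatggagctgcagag
The competing donors of BCL2L1 are shown with 12 exon bases and 8 intron bases, the first intron bases (GT) in capitals. The short donor (chr20:31721836-31721855, minus strand) lies 189 bases upstream of the long donor (chr20:31721647-31721666).
BCL2L1 short donor: agctttgaacagGTagtgaa
BCL2L1 long donor: aacggcggctggGTaagaac

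Each intron has a PSI value, the share of the reads of its cluster that cross it, given here in percent, and the introns of a cluster add to the whole. Read counts behind the PSI values are unknown, so no counting interval can be given. Of the 184 member introns, 103 had a mean PSI between 1% and 99% and were tested, 77 lay below and 4 above. Each was tested with limma on the log2 odds of PSI among 152722 introns, with Benjamini-Hochberg adjustment, and called at an adjusted p under 0.05. An isoform share is the percentage of the compared introns, with the mean of both flanking introns standing for the included exon, that gave the form named. It was compared with an exact two-sided permutation test, with SNRPD3 siRNA labels permuted within MYCN status and MYCN labels permuted within siRNA. For the knockdown, both SNRPD3 siRNAs carried the same label, so its p also holds the difference between them. The SE given with a difference in share comes from the spread within groups alone. There were 18 shares and 36 such tests, and their p-values are unadjusted.

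Few member introns passed the threshold. For the MYCN main effect, MYCN+ against MYCN- over all siRNAs, 3 of 103 (2.91%) were called by limma, in BAX, BCL2L1 and CFLAR, beside 1.23% of all introns. Between 1 and 3 were called with any 1 library left out, and the BAX intron was among them each time. At an unadjusted p under 0.05 there were 11 (10.7%), beside 11.7% of all introns. For the knockdown main effect, both SNRPD3 siRNAs against control siRNA over both MYCN states, 0 of 103 were called by limma, beside 0.0242% of all introns. At an unadjusted p under 0.05 there were 6 (5.83%), beside 7.8% of all introns.

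In the other 9 comparisons 0 member introns were called by limma. The share of all introns called was 0.0543% for MYCN alone, 0.0105% and 0.0151% for the knockdown with MYCN repressed (siRNA #1 and #2), and 0.0144% and 0.0164% with MYCN expressed. It was 0.278% and 0.11% for MYCN+/SNRPD3- against wildtype and 0.017% and 0.0138% for the interaction of knockdown and MYCN. At an unadjusted p under 0.05, MYCN alone had 6 member introns (5.83%, beside 6.19% of all introns). The knockdown with MYCN repressed had 1 with siRNA #1 (0.971% beside 4.54%) and 3 with siRNA #2 (2.91% beside 4.69%). With MYCN expressed it had 4 (3.88% beside 7.25%) and 7 (6.8% beside 6.17%). MYCN+/SNRPD3- against wildtype had 15 (14.6% beside 10.4%) and 8 (7.77% beside 9.19%), and the interaction had 2 (1.94% beside 4.07%) and 1 (0.971% beside 3.97%).

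Skipping of BAX exon 3 was higher in MYCN+ cells. BAX opens the mitochondrial outer membrane, and the exon encodes its BH3 region. The isoform share without exon 3, taken with the mean of both flanking introns, was 6.02%, 4.84% and 6.37% in the wildtype libraries. It was 6.65%, 5.58% and 9.24% in MYCN-/SNRPD3- with siRNA #1 and 6.65%, 5.29% and 8.22% with siRNA #2. In MYCN+/SNRPD3+ it was 12.8%, 9.19% and 10.7%. In MYCN+/SNRPD3- it was 13.5%, 10.3% and 11.7% with siRNA #1 and 14.1%, 11.9% and 12.8% with siRNA #2. The MYCN+ and MYCN- libraries overlapped only where the highest MYCN- value, 9.24%, passed the lowest MYCN+ value, 9.19%. The mean rose from 6.54% to 11.9%, by 5.35 ± 0.704 percentage points (SE), with an exact permutation p of 0.00025, the smallest this test can give. Leaving out any 1 library kept the difference between 5.03 and 5.70 points.

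**Figure D1:**
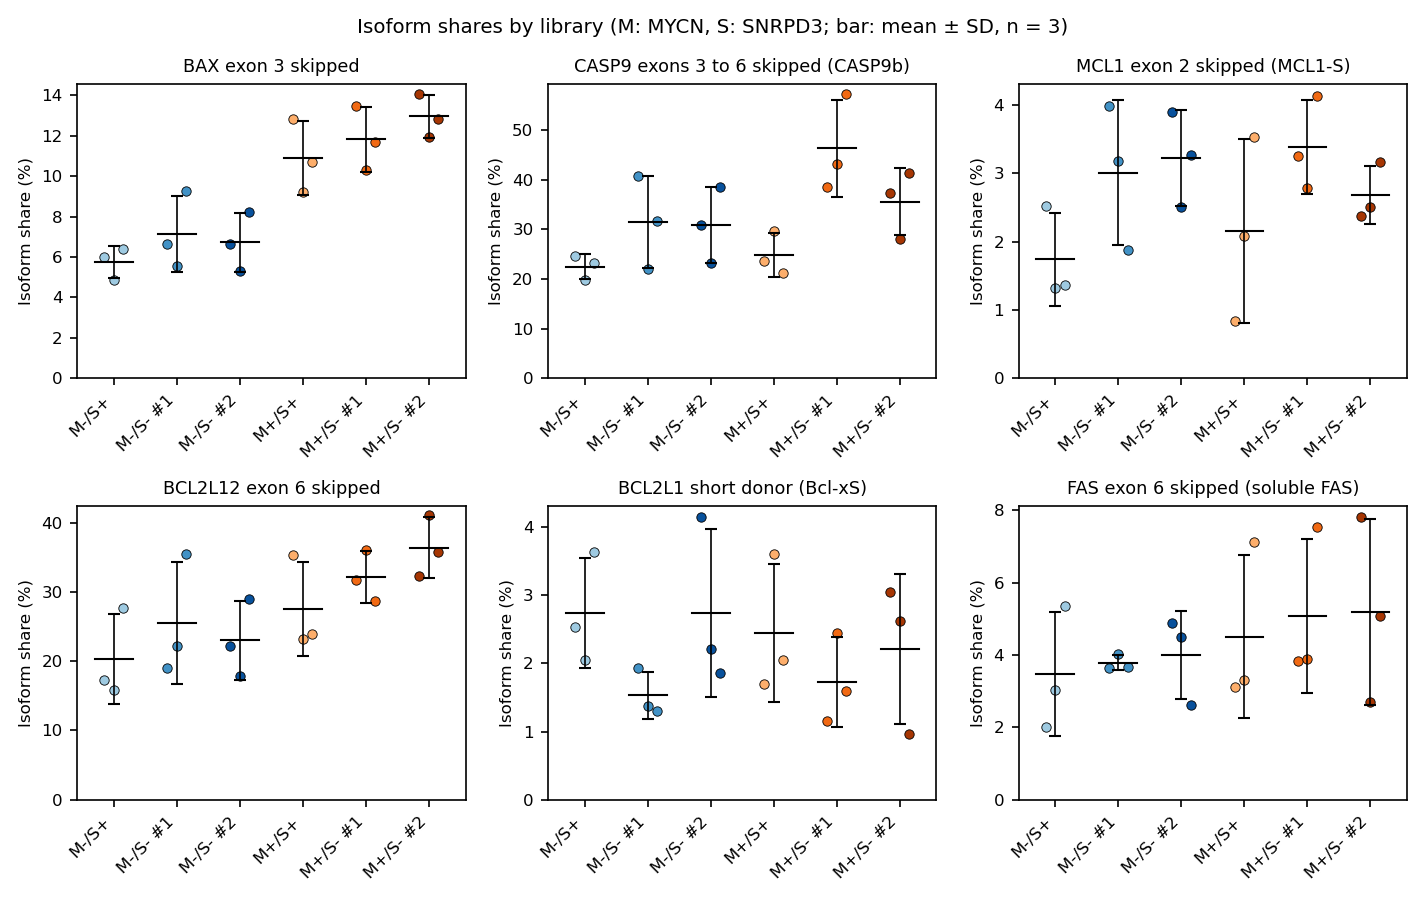
Isoform share in percent (vertical axis) of 6 switches in each of the 18 libraries, with points for libraries, horizontal bars for group means and error bars for the SD (n = 3). M stands for MYCN, S for SNRPD3, and #1 and #2 for the siRNAs; BAX exon 3 skipping sat at 9.19% or more in the 9 MYCN+ libraries.

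The intron itself, from exon 2 to exon 4 (chr19, 48955599 to 48956198), had a PSI of 3.00% in MYCN- and 5.57% in MYCN+ libraries. The log2 odds differed by 0.77 ± 0.12 (SE), with an adjusted p of 0.0062 by limma, and the call was made whichever library was left out. In MYCN alone the same intron had an adjusted p of 0.35. The knockdown moved the BAX exon 3 share by 1.33 ± 0.746 points (exact permutation p = 0.0754), and the share was 8.33% without and 9.66% with SNRPD3 siRNA.

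The other BAX events were smaller. Skipping of exons 2 and 3 together rose from 2.72% in MYCN- to 3.90% in MYCN+ libraries, by 1.18 ± 0.373 points (exact permutation p = 0.00475). Skipping of exon 2 alone was 1.89% and 2.54%, a difference of 0.652 ± 0.382 points (exact permutation p = 0.0958). An extra exon between exons 4 and 5 was included in 0.557% and 0.635% (p = 0.427, exact permutation). An acceptor 49 bases upstream of exon 6, which is not annotated, was used in 7.74% and 8.05% (p = 0.284, exact permutation).

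**Figure D2:**
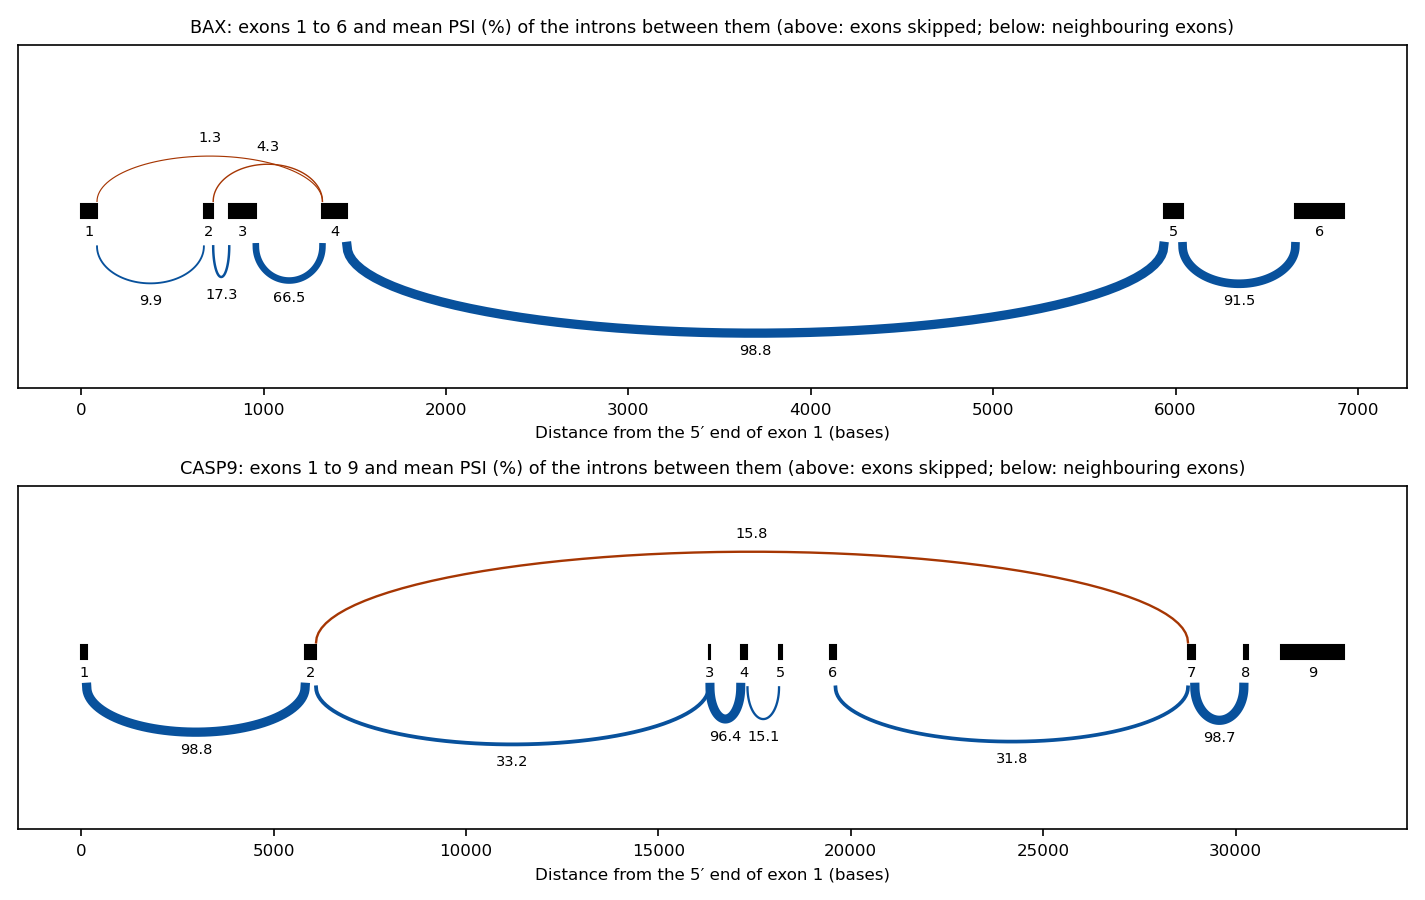
Exons of BAX and CASP9 as boxes against the distance in bases from the 5′ end of exon 1, with arcs for the tested introns between exons, wider for higher mean PSI in percent over the 18 libraries (printed at each arc). Arcs above skip exons, and those below join neighbouring exons; BAX 2 to 4 carried 4.3% and CASP9 2 to 7 carried 15.8%.

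The introns that flank an included exon should be removed equally often, and in BAX they were not counted so. The mean PSI was 9.87% for exon 1 to 2, 17.3% for exon 2 to 3 and 66.5% for exon 3 to 4. With the flank upstream alone, the MYCN difference in exon 3 skipping was 10.5 points (exact permutation p = 0.00375), and with the flank downstream alone it was 3.53 points (exact permutation p = 0.00025). For exons 2 and 3 together it was 3.69 and 0.697 points, past 0.05 with either flank. The level of these shares also depends on the flank used. The cause of the inequality was not tested.

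The CASP9b share was higher with the SNRPD3 siRNAs. Joining exon 2 to exon 7 removes exons 3 to 6 (chr1:15504611-15507907, minus strand, with 450 bases of exon, in frame) and gives CASP9b, a short form known to inhibit the full-length caspase. Its share was 24.5%, 19.7% and 23.2% in wildtype libraries and 23.6%, 29.7% and 21.1% in MYCN+/SNRPD3+. With SNRPD3 siRNA #1 it was 40.7%, 22.1% and 31.7% in MYCN- cells and 38.5%, 43.2% and 57.2% in MYCN+ cells. With siRNA #2 it was 30.9%, 23.2% and 38.5% in MYCN- cells and 37.2%, 28.1% and 41.4% in MYCN+ cells. The 12 knockdown libraries lay mostly above the 6 controls, and the groups overlapped. The mean rose from 23.6% to 36.1%, by 12.4 ± 3.6 points (exact permutation p = 0.00496), and it stayed between 10.8 and 13.7 points with any 1 library left out.

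The skipping intron alone (15495452 to 15518110 on chromosome 1) had a PSI of 10.5% without and 18.5% with SNRPD3 siRNA, a log2 odds difference of 0.83 ± 0.23 and an adjusted p of 0.32 by limma, so it was not called across the table. The MYCN effect on the CASP9b share was 7.29 ± 3.40 points (28.3% to 35.6%, exact permutation p = 0.0493). It was 4.27 points with the upstream flank alone (exact permutation p = 0.333) and 9.30 with the downstream flank alone (exact permutation p = 0.02). With the mean of both flanks it passed 0.05 in 7 of 18 tests with 1 library left out. Those left out replicate 1 of wildtype, replicate 1 of MYCN-/SNRPD3- siRNA #1, replicate 3 of MYCN-/SNRPD3- siRNA #2, replicates 1 and 3 of MYCN+/SNRPD3+, replicate 1 of MYCN+/SNRPD3- siRNA #1 or replicate 2 of MYCN+/SNRPD3- siRNA #2.

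BCL2L1 encodes the protective Bcl-xL and, from the short donor, the pro-apoptotic Bcl-xS. Bcl-xS made up 2.34% of the donor pair in MYCN- and 2.13% in MYCN+ libraries, a difference of -0.206 ± 0.429 points (exact permutation p = 0.619). The knockdown difference was -0.541 ± 0.455 points (2.60% to 2.05%, exact permutation p = 0.254). No Bcl-xS switch was detected at this spread. Of its 6 tested 5′ UTR introns, 1 was called for the MYCN main effect. That intron, from an upstream donor to exon 2 (chr20, 31722348 to 31723864), had PSI values from 1.49% to 5.16% in the MYCN- libraries and from 4.24% to 10.6% in the MYCN+ libraries, with medians of 3.74% and 6.20%. The log2 odds rose by 0.77 ± 0.17 (adjusted p = 0.043, limma), and the call was lost in 15 of 18 fits with 1 library left out. It held without replicate 1 of MYCN-/SNRPD3- siRNA #1, replicate 1 of MYCN-/SNRPD3- siRNA #2 or replicate 3 of MYCN+/SNRPD3+.

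MCL1 without exon 2 (248 bases, frame-shifting) encodes the short MCL1-S, which of the BCL2 homology regions keeps only BH3 and promotes death. Its share ran from 0.836% to 3.53% in the 6 control siRNA libraries and from 1.88% to 4.14% in the 12 SNRPD3 siRNA libraries, with medians of 1.73% and 3.17%. The mean rose by 1.13 ± 0.435 points (exact permutation p = 0.0153), and without replicate 1 of MYCN+/SNRPD3+ the difference was 0.802 points (exact permutation p = 0.0723). The skipping intron itself, from exon 1 to exon 3, went from 0.983% to 1.56% with SNRPD3 siRNA and was not called (adjusted p = 0.51, limma). The flanking introns of exon 2 were unequal here too, at 28.8% and 69.5% mean PSI, and the knockdown difference was 2.06 points with the upstream flank alone and 0.775 points with the downstream flank alone, past 0.05 with either. The MYCN difference was 0.0826 ± 0.41 points (exact permutation p = 0.837).

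**Figure D3:**
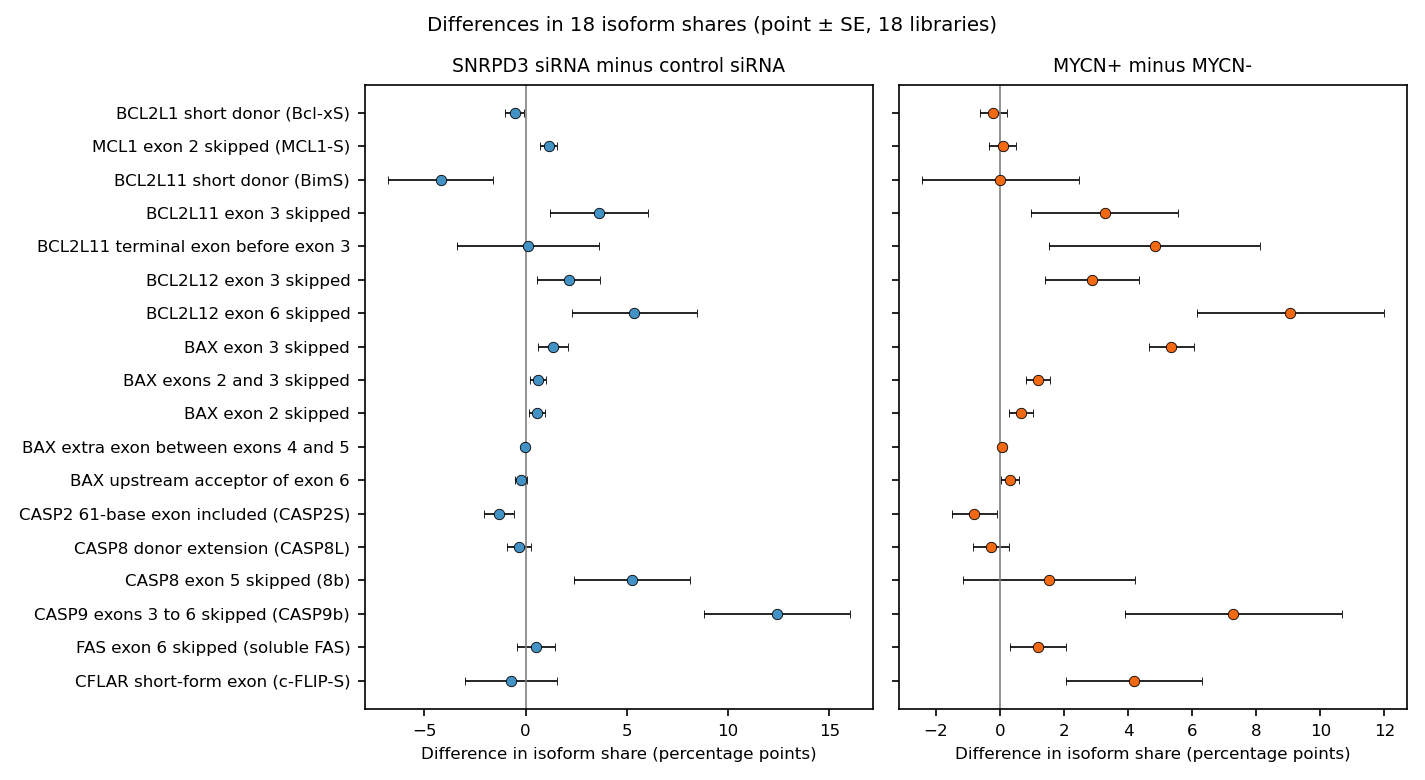
Differences in percentage points (horizontal axis, point ± SE, 18 libraries) of 18 isoform shares, SNRPD3 siRNA minus control siRNA on the left and MYCN+ minus MYCN- on the right. CASP9b moved most with the siRNAs, by 12.4 points, and of the shares not added after their values were seen it also moved most with MYCN, by 7.29 points.

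BCL2L12 is a BCL2-related protein. Skipping of its exon 6 (273 bases, in frame), a share added after its values were seen, was 22.9% in MYCN- and 32.0% in MYCN+ libraries. The difference was 9.07 ± 2.92 points (exact permutation p = 0.009), and 8.92 points with the upstream flank alone (exact permutation p = 0.0553). Since this share was picked with its values known, its p-values are not read as evidence. The knockdown difference was 5.36 ± 3.09 points (exact permutation p = 0.085). Its intron from exon 5 to exon 7 went from 13.1% to 19.2% with MYCN, with an adjusted p of 0.18 by limma. Exon 3 skipping was 9.40% and 12.3% (exact permutation p = 0.06).

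BCL2L11 encodes BIM, whose short form BimS is a potent killer. BimS made up 12.4% of the pair of donors without and 8.20% with SNRPD3 siRNA, a difference of -4.20 ± 2.60 points (exact permutation p = 0.132), with library values from 2.63% to 25.5%. The intron from exon 2 to exon 4, which skips exon 3 with the BH3 region, is not annotated. Skipping of exon 3, a share added after its values were seen, was 7.25% and 10.9% (exact permutation p = 0.125). Neither differed beyond the spread, and the MYCN difference in BimS was 0.01 ± 2.45 points (exact permutation p = 0.995).

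Among the other caspases, CASP2 with its extra exon gives CASP2S, a protective form. The exon (chr7:143300380-143300440, plus strand, 61 bases, frame-shifting) is shown whole because its inclusion, not its loss, marks the short protein.
CASP2 61-base exon: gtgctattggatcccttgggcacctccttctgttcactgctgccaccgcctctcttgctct
It was included in 6.46% without and 5.14% with SNRPD3 siRNA, a difference of -1.32 ± 0.750 points (exact permutation p = 0.107). CASP8L, made from a donor further downstream that lengthens exon 7, was 3.73% and 3.39% (exact permutation p = 0.536). CASP8 without exon 5 was 38.7% and 44%, a difference of 5.26 ± 2.86 points (exact permutation p = 0.0602).

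FAS without exon 6 (63 bases, in frame) lacks the membrane-spanning segment and is the soluble, protective form.
FAS exon 6: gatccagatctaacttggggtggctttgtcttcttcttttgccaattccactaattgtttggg
Its share was 3.75% in MYCN- and 4.93% in MYCN+ libraries (exact permutation p = 0.168), and 3.99% and 4.51% without and with SNRPD3 siRNA (exact permutation p = 0.528). CFLAR reaches its short form through an alternative terminal exon after exon 5. That junction took 75.2% of the pair in MYCN- and 79.4% in MYCN+ libraries, a difference of 4.18 ± 2.13 points (exact permutation p = 0.0597). A 5′ UTR intron that joined an alternative first exon of CFLAR to exon 2 (chr2, 201118901 to 201129729) fell with MYCN. Its PSI ran from 6.67% to 13% in MYCN- and from 4.10% to 10.2% in MYCN+ libraries, and the log2 odds fell by 0.64 ± 0.13 (adjusted p = 0.037, limma). The call was lost in 14 of 18 fits with 1 library left out. It held without replicate 3 of MYCN-/SNRPD3- siRNA #1, replicate 1 of MYCN-/SNRPD3- siRNA #2, replicate 3 of MYCN+/SNRPD3- siRNA #1 or replicate 2 of MYCN+/SNRPD3- siRNA #2.

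**Figure D4:**
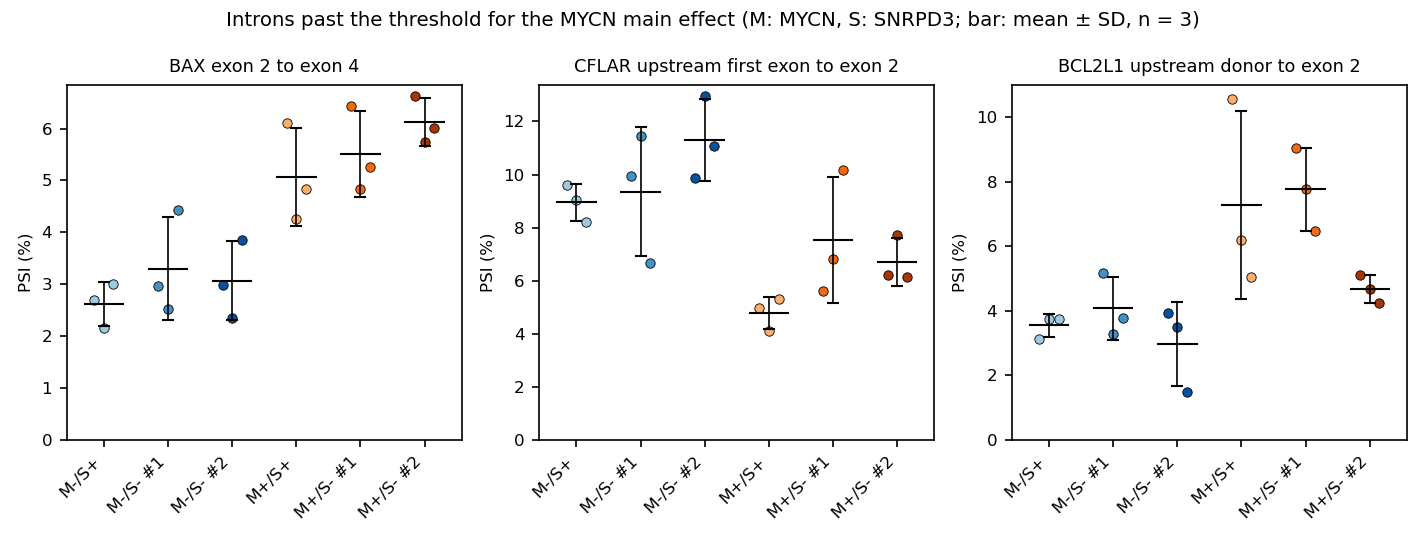
PSI in percent (vertical axis) of the 3 introns called for the MYCN main effect in each of the 18 libraries, with group mean bars and SD error bars (n = 3). M stands for MYCN, S for SNRPD3, and #1 and #2 for the siRNAs. The BAX intron lay between 4.26% and 6.63% in MYCN+ and between 2.16% and 4.43% in MYCN- libraries.

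In several genes the tested intron with the largest PSI difference was not part of any of the 18 shares. With SNRPD3 siRNA, the CFLAR intron from exon 9 to an acceptor before exon 10 went from 25.5% to 21.1% (adjusted p = 0.88, limma). A CASP8 5′ UTR intron (201233554 to 201234016) went from 28.8% to 24.6% (adjusted p = 0.66, limma). The FAS intron from exon 1 to exon 2 went from 94.7% to 92.3% (adjusted p = 0.65, limma). For BCL2L11, the intron inside exon 2 whose removal turns BimEL into BimL went from 11.4% to 9.17% (adjusted p = 0.74, limma). In CASP2 an alternative donor to exon 2 went from 13.7% to 16.5% (adjusted p = 0.91, limma). None of these 5 introns was called. The BCL2L1 5′ UTR intron from exon 1 to an alternative acceptor went from 33.9% to 36.8% (adjusted p = 0.78, limma). For BAX exon 2 to exon 3 it was 18.7% to 16.7% (adjusted p = 0.90, limma). BCL2L12 exon 5 to exon 7 went from 13.7% to 17.3% (adjusted p = 0.74, limma). MCL1 exon 1 to exon 2 went from 29.4% to 28.5% (adjusted p = 0.99, limma).

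With MYCN, the CFLAR intron from exon 9 to exon 10 went from 74.7% to 80.1% (adjusted p = 0.52, limma), and the BCL2L1 5′ UTR intron from exon 1 to exon 2 from 34% to 28.3% (adjusted p = 0.43, limma). The CASP9 intron from exon 6 to exon 7 went from 34.6% to 29.1% (adjusted p = 0.42, limma), and without replicate 3 of MYCN-/SNRPD3- siRNA #1 it was called (adjusted p = 0.038, limma). The MCL1 intron from exon 1 to exon 2 went from 30.5% to 27.2% (adjusted p = 0.67, limma). In FAS the intron from exon 3 to exon 4 went from 30.6% to 28% (adjusted p = 0.57, limma). The BCL2L11 intron from exon 2 to the terminal exon before exon 3 went from 6.75% to 8.77% (adjusted p = 0.52, limma). CASP2 exon 9 to exon 10 went from 48.5% to 47.4% (adjusted p = 0.88, limma). A CASP8 5′ UTR intron (201233622 to 201234016) went from 71.5% to 73.4% (adjusted p = 0.81, limma).

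Among the exon-skip sets that passed the limits below, skipping was higher in most with either factor. A set is an annotated exon with its skipping intron and both flanking introns, and many sets share an intron. A limit on the mean skip share left out sets that were skipped almost never or almost always. The member sets kept had mean skip shares from 1.04% to 98.4%. The BAX extra exon between exons 4 and 5, included in 0.557% in MYCN- and 0.635% in MYCN+ libraries, was not among them. Where the skipping intron had a mean PSI of at least 1%, 16 of 18 member sets were higher with SNRPD3 siRNA (88.9%, median difference 1.55 points), beside 70.8% of 25386 sets of all genes (median 1.21 points). With MYCN, 17 of 18 were higher (94.4%, median 1.42 points), beside 63.4% of all sets (median 0.896 points). That minimum was chosen after the data were seen. Without it, but with the limit on the mean skip share, there were 39 member sets. Of these, 36 were higher with SNRPD3 siRNA (92.3%, median 2.12 points, beside 70.8% and 0.868 points over all genes). With MYCN, 37 of the 39 were higher (94.9%, median 1.32 points, beside 65.4% and 0.677 points). The limits use means over all libraries, so a set could enter because its skipping was high in 1 group alone. The MCL1 skipping intron had a PSI of 0.983% without and 1.56% with SNRPD3 siRNA. A BCL2L11 exon 3 set had a mean skip share of 2.03% and rose by 2.87 points with SNRPD3 siRNA. These are counts and medians with no test. The direction of the sets is not read as a result, and nothing is said of the members against other genes.

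**Figure D5:**
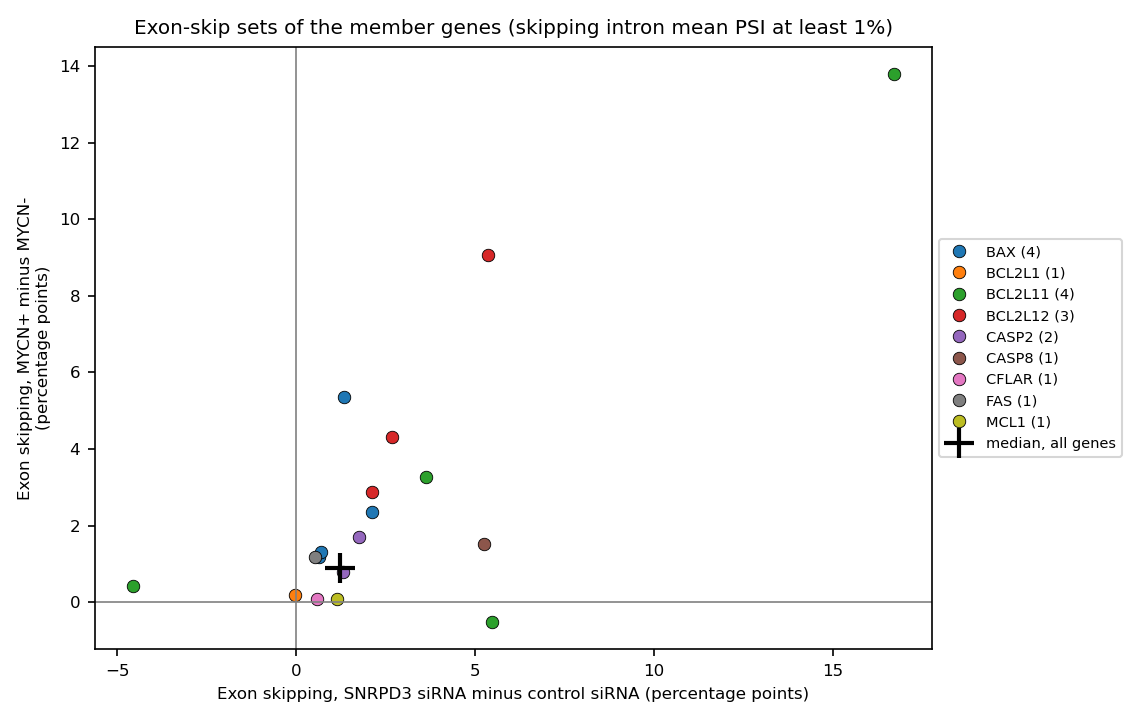
Difference in exon skipping in percentage points with SNRPD3 siRNA (horizontal axis) and with MYCN (vertical axis) for 18 member sets, coloured by gene, with the number of sets in the legend. These sets passed the limit on the mean skip share, and their skipping intron had a mean PSI of at least 1%. The cross marks the median of all genes, at 1.21 and 0.896 points.

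A second list of apoptosis genes, 37 of 52 with introns in the table, gave 286 tested introns in 34 genes. The MYCN main effect called 4 of them by limma (1.4%, beside 1.23% of all introns), in BCL2L2, BMF, CASP10 and HTRA2, and between 1 and 4 with any 1 library left out. HTRA2, a mitochondrial protease, rose from 3.78% to 7.29% for the intron from exon 6 to exon 8 (log2 odds 0.84 ± 0.11, adjusted p = 0.0031, limma). The called introns of BMF, a BH3 protein, CASP10 and BCL2L2 are not annotated and had mean PSI values under 1% in the MYCN- libraries (0.0967%, 0.225% and 0.734%). They passed the filter only through the MYCN+ libraries, at 2.46%, 1.96% and 1.36%, so their direction is not read as a result. The knockdown main effect called 0 by limma, and 24 (8.39%) had an unadjusted p under 0.05, beside 7.8% of all introns.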

How the data were processed

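Libraries of polyadenylated RNA were made with a stranded mRNA kit, and reads were aligned by the authors to hg38 with STAR 2.5.0a and handled with SAMtools 1.3.1, per the submitters' processing notes. The authors clustered introns with leafcutter and deposited PSI as a fraction of each cluster; the number of reads is not part of it. A second deposited table holds the authors' own differences and FDR values and was not used. Introns were matched to GENCODE v44 exon boundaries of hg38. PSI was converted to log2((PSI + 0.01)/(1 - PSI + 0.01)), kept where the mean PSI was 0.01 to 0.99, and fitted over 6 group means in limma 3.58.1 (R 4.3.3). Shares were tested by permutation in Python 3.11.15, over 7056 relabelings for the knockdown and 8000 for MYCN. Both scripts were tested on simulated data. Introns were named if they belonged to a listed switch, were called in any of 11 comparisons, or had the largest difference of their gene. The members and lists were chosen with earlier results of these data known. The main tests did not pair same-numbered libraries. Their deviations from group means correlated at a mean of 0.00615 over the tested introns (45 pairs), which cannot show that single shares are unpaired. In all 6 groups, BAX exon 3 skipping was lowest in replicate 2 and CASP8 exon 5 skipping was highest in replicate 3. Bcl-xS kept no such order. Whether the numbers pair the libraries is not known. Of the 18 shares, BCL2L12 exon 6, BCL2L11 exon 3 and the BCL2L11 terminal exon were added after their PSI values were seen, and the 1% minimum on skipping introns was set after the sets without it were seen.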

Additional observations from a re-analysis of the deposited data

How the results depend on the processing

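Alternatives covered the offset, the PSI filter, the flank used, the log2 odds of a share, moderation with trend and robust, fits of only the groups compared, a replicate block, and leaving out each library. The called BAX exon 2 to exon 4 intron was called in every fit that tested it, with a log2 odds difference between 0.72 and 0.83 and an adjusted p between 0.0039 and 0.017 with any 1 library left out (limma); a mean PSI filter of 0.05 to 0.95 left it untested. The count of member introns called for the MYCN main effect was 1 with trend and robust moderation, and ranged from 1 to 3 with a library left out. The BCL2L1 call was also lost with an offset of 0.001 (adjusted p = 0.0525, limma) and with no PSI filter (0.0514), and the CFLAR call with the replicate block (0.0539). With trend and robust moderation both were lost (0.0655 and 0.0598). The knockdown with MYCN expressed and siRNA #2 called 2 member introns in the fit of only those groups, both at the first intron of CASP9. With the replicate block, 1 member intron was called in MYCN+/SNRPD3- against wildtype with siRNA #1 and 1 with siRNA #2, BAX both times. Since it is not known whether the numbers pair the libraries, these are given only as values. For the other apoptosis genes, no PSI filter called 1 intron for the knockdown main effect and the 0.05 to 0.95 filter called 1 for the MYCN main effect, which ranged from 1 to 4 with a library left out; MYCN+/SNRPD3- against wildtype called 2 with siRNA #1 in the fit of those groups, and 0 with siRNA #2 under the 0.05 to 0.95 filter or trend and robust moderation, with a range of 0 to 1.

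Of the shares, MCL1-S turned direction for MYCN with the downstream flank (-0.0131 points) and BCL2L11 with the terminal exon before exon 3 for the knockdown on log2 odds (-0.0859), neither past 0.05. Passing 0.05 only under an alternative, by exact permutation, were BCL2L12 exon 3 for MYCN (0.425 in log2 odds, 2.87 points with the block, 2.80 downstream), BCL2L12 exon 6 for the knockdown (5.36 with the block, 5.93 downstream), BAX exon 3 for the knockdown (1.33 with the block), BAX exon 2 for MYCN (0.652 with the block), CASP2S for the knockdown (-2.37 upstream), CASP8 exon 5 for the knockdown (5.26 with the block, 6.00 downstream) and CFLAR for MYCN (4.18 with the block). No longer past 0.05 were BCL2L12 exon 6 for MYCN (8.93 upstream) and CASP9b for MYCN (7.29 with the block, 4.27 upstream). With the block, the knockdown p (exact permutation) was 0.00137 for BAX exon 3 and 0.00686 for CASP8 exon 5. For BCL2L12 exon 6 it was 0.0274. The MYCN p (exact permutation) with the block was 0.00781 for CFLAR and 0.03125 for BCL2L12 exon 3. For BAX exon 2 it was 0.0391 and for CASP9b 0.0508.

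With 1 library left out, the shares that crossed 0.05 or changed direction ranged as follows, in points. For the knockdown these were MCL1-S (0.802 to 1.475), the BCL2L11 terminal exon (-1.828 to 1.282), BCL2L12 exon 6 (4.24 to 7.311), BAX exon 3 (0.906 to 1.82), BAX exons 2 and 3 (0.431 to 0.806), the BAX extra exon (-0.095 to 0.0193), CASP2S (-1.797 to -1.039), CASP8 exon 5 (3.803 to 6.071) and CFLAR (-2.665 to 0.902). For MYCN they were Bcl-xS (-0.399 to 0.0288), MCL1-S (-0.147 to 0.302), BimS (-1.086 to 1.987), BCL2L11 exon 3 (2.263 to 4.631), the BCL2L11 terminal exon (2.167 to 6.931), BCL2L12 exon 3 (2.213 to 3.798), BAX exon 2 (0.43 to 0.813), CASP9b (5.462 to 8.819) and CFLAR (3.095 to 5.473). The MCL1 intron from exon 1 to exon 2 ranged from -0.17 to 0.0501 in log2 odds for the knockdown. The cause of these changes was not tested, and the unknown read depth limits the shares near 0.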
